A study of Mus musculus with 6 samples.

Results

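The Hox cluster genes were measured by RNA-seq of whole mouse hearts at embryonic day 9.5. There were 3 libraries of controls and 3 of a knockout of Cdc42 in the myocardium (MCKO). The members are the protein-coding genes whose symbol is Hoxa, Hoxb, Hoxc or Hoxd followed by a number, which gave 39 of the 30323 gene IDs of the table. Controls are labelled C57BL/6 ctrl and the others CDC-42 KO. Cdc42 is a small GTPase of the actin cytoskeleton and cell polarity. The Cre line, the deleted exon, the litters and the number of somites were not stated in the labels, which also do not tie each library to a single heart, so the p-values measure the spread between these libraries, which may be technical. The question is which Hox transcripts the heart region holds at this stage, and how they differ when heart muscle lacks Cdc42.

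Hox genes encode homeodomain transcription factors that give cells their position along the head-to-tail axis. They lie in clusters in which the gene order along the chromosome follows the order of expression: the 3′ genes with low paralogue numbers are active earliest and farthest toward the head, the 5′ genes with high numbers later and toward the tail. Retinoic acid activates 3′ Hox genes, TALE homeodomain proteins (PBX, MEIS and PKNOX) bind DNA together with Hox proteins, Polycomb proteins keep clusters silent and MLL methyltransferases keep them active. Near the heart, Hoxb1 and Hoxa3 are known from heart progenitors in the splanchnic mesoderm behind the heart tube, and 3′ Hox genes are also expressed in hindbrain, neural crest, pharyngeal pouches and foregut.

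The libraries held 19256840 to 34246477 estimated counts. Values per gene are CPM (counts scaled by the library total). For a count of 0, the upper 95% counting limit is near 3 counts, which are 0.0876 to 0.156 CPM. Values with ± are means with the SD of 3 libraries. Cdc42 was 399.9 ± 23.2 CPM (SD, n = 3) in controls and 242.3 ± 4.76 CPM (SD, n = 3) in MCKO, with a log2 fold change of -0.66 (SE 0.047, edgeR adjusted p = 3.19e-06). Heart muscle genes were abundant in all libraries, for example Tnnt2, cardiac troponin T, at 2375 ± 78.8 and 2716 ± 33.5 CPM. Of 14824 genes tested, 57.9% were called at an adjusted p under 0.05. The labels name no batch, so a batch that follows the groups cannot be told apart from the genotype.

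All 39 Hox genes together were a small share of the RNA and were more abundant in MCKO. Their summed level was 21.4, 21.3 and 21.6 CPM in the control libraries and 37.0, 41.3 and 37.8 CPM in the MCKO libraries. Every MCKO library lay above the range of the control libraries, whose sums rest on 410 to 695 counts each. The counts were 1683 in all controls and 3232 in all MCKO libraries, which in CPM is a ratio of 1.80, with a 95% exact counting interval of 1.69 to 1.91, which covers counting error only. In bulk hearts, more cells of a type and more RNA per cell cannot be told apart.

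Transcripts came almost wholly from the 3′ ends of the clusters. The 8 genes with paralogue numbers 1 to 3 held 16.96 ± 0.496 CPM in controls and 32.95 ± 1.95 CPM in MCKO (SD, n = 3 each). Paralogues 4 and 5, which are 7 genes, held 3.70 ± 0.429 and 4.68 ± 0.250 CPM. The 12 genes numbered 6 to 9 held 0.709 ± 0.209 and 0.858 ± 0.337 CPM, and the 12 genes numbered 10 to 13 held 0.0677 ± 0.0337 and 0.218 ± 0.0655 CPM. Along Hoxa, Hoxa5 was the last gene to pass the count minimum and its neighbour Hoxa6 had 0 counts in all 6 libraries. Beyond Hoxa6, Hoxa7 had 2 control and 7 MCKO counts and Hoxa9 had 21 and 18. Along Hoxb, Hoxb4 was the last to pass, and Hoxb5 had 14 control and 20 MCKO counts and Hoxb6 had 0 and 1.

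By cluster, Hoxb held most of the transcripts and Hoxa had the larger ratio between groups. The Hoxb cluster (10 genes, chromosome 11, 96194316 to 96368256 on the plus strand in GRCm38) held 15.6, 15.5 and 14.8 CPM in controls and 21.7, 24.2 and 22.9 CPM in MCKO. The Hoxa cluster (11 genes, chromosome 6, minus strand) held 4.71, 4.78 and 5.63 CPM and then 13.6, 15.3 and 13.4 CPM. The groups did not overlap for either cluster, and the ratio was 1.5 for Hoxb (counting interval 1.39 to 1.61) and 2.75 for Hoxa (2.45 to 3.09). The Hoxa cluster took 22.0 to 26.0% of all Hox counts in a control library and 35.3 to 36.9% in an MCKO library. The Hoxc cluster (9 genes, chromosome 15, 102921103 to 103036852) held only 61 control and 65 MCKO counts, for a ratio of 0.997 (0.692 to 1.44). The Hoxd cluster (9 genes, chromosome 2, 74668310 to 74765142) held 28 and 78 counts, a ratio of 2.61 (1.67 to 4.17), and Hoxd3 supplied most of the rise.

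Of the 39 genes, 10 had at least 10 counts in at least 3 libraries and were compared, and the other 29 are listed as scarce below. Those described singly are Hoxa2 to Hoxa5, Hoxb1 to Hoxb4 and Hoxd3. By edgeR, 8 were called higher in MCKO, against 29.0% of all tested genes, and 0 lower, against 28.9%. No compared gene was lower at an unadjusted p under 0.05, and DESeq2 and limma voom also called 0 lower. The groups did not overlap for 7, all higher in MCKO, against 28.2% of tested genes. The log2 fold change was at least 1 for 5 of them, against 7.04% of tested genes called with such a rise, and the median over the 10 was 1.05, against -0.00012 over all tested genes. Hoxd3 reached the minimum only in MCKO libraries, so it had to differ once tested, and the counts of calls are a description of these 10 genes and not of the family. The default edgeR filter leaves Hoxd3 out and gives 7 calls among 9 genes.

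Start regions are shown for Hoxa2, Hoxb1, Hoxb4 and Hoxd3, called higher and chosen because their windows hold a TGATNNAT or AGGTCA match. Each stretch is RefSeq sequence on GRCm38.p6, written 5′ to 3′ on the gene's strand and ending before the annotated start. That of Hoxd3 also lies before Hoxd4, a scarce gene annotated from chr2:74711929 on the same strand. RefSeq windows matched 6 of the 10 compared genes, and those of Hoxa3 and Hoxa5, which hold neither of these motifs, are not printed. Capitals mark matches, on either strand, to TGATNNAT (a form bound by PBX with a Hox protein), AGGTCA (a half-site of retinoic acid receptors) and CCAAT (bound by NF-Y). Matches on the opposite strand read as their reverse complement, and no match overlaps another. The stretches are chr11:96365508-96365751 on the plus strand for Hoxb1, chr6:52164832-52165081 on the minus strand for Hoxa2, chr2:74711743-74711926 on the plus strand for Hoxd3 and chr11:96318017-96318266 on the plus strand for Hoxb4.
Hoxb1: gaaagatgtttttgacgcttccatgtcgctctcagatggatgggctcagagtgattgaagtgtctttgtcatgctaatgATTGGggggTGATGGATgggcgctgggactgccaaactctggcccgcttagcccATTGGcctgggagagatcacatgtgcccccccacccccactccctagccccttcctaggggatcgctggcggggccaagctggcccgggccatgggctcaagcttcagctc
Hoxa2: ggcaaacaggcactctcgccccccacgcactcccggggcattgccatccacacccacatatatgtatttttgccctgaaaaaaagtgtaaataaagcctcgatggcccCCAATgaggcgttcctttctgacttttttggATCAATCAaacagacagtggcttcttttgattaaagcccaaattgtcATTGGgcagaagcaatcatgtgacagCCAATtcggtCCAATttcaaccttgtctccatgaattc
Hoxd3: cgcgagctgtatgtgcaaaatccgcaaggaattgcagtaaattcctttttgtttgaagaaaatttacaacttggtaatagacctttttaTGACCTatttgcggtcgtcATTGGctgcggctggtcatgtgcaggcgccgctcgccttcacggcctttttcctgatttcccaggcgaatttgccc
Hoxb4: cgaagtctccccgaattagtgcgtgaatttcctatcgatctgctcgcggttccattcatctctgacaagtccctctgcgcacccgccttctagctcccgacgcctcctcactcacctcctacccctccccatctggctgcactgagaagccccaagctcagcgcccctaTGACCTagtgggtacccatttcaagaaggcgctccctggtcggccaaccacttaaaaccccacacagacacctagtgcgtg

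In windows of 250 bases before the RefSeq start, TGATNNAT was found in 2 of the 6 compared genes with a window, Hoxb1 and Hoxa2, and in 7.69% of 32817 windows over all genes. In Hoxb1 it lies 162 to 155 bases before the start, and PBX-HOX sites of this form are known from the element through which Hoxb1 regulates itself. AGGTCA was found in 2 of the 6, Hoxb4 and Hoxd3, and in 4604 of the windows. CCAAT was found in 4 of the 6 and in 33.8% of all windows. AGTTCA (another receptor half-site), TATAAA and ACGTG (the core bound by hypoxia-inducible factors) were found in none of the 6, and in 11.9%, 12.4% and 16.6% of all windows. Over the 24 windows of Hox genes, compared or not, TGATNNAT was found in 4, AGGTCA in 6 and CCAAT in 14. AGTTCA was found in 2 of these 24, TATAAA in 4 and ACGTG in 5. These matches describe the letters of the windows, and binding was not measured.

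Paralogue 1 genes open the clusters and mark the hindbrain and heart progenitors early. Hoxb1 (ENSMUSG00000018973, chr11:96365752-96368256) had 14, 7 and 10 counts in controls and 65, 53 and 67 in MCKO, which is 0.519, 0.364 and 0.311 CPM and then 1.90, 2.06 and 2.81 CPM. Every MCKO library exceeded every control, by a log2 fold change of 2.55 (SE 0.27, adjusted p = 4.19e-05). Its paralogue Hoxd1 was scarce, with 2 control and 10 MCKO counts and a ratio of 4.68 (counting interval 0.997 to 43.9). Hoxb1 supplied 1.44 to 2.42% of all Hox counts in a control library and 4.99 to 7.42% in an MCKO library.

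The paralogue 2 genes pattern the hindbrain and the neural crest of the pharyngeal arches, and their members differed in size. Hoxa2 (ENSMUSG00000014704, chr6:52162417-52164831) was at 0.927, 0.571 and 0.653 CPM in controls and 1.46, 1.87 and 1.67 CPM in MCKO, without overlap. Its log2 fold change was 1.25 (SE 0.24, adjusted p = 0.00144). Hoxb2 (ENSMUSG00000075588, chr11:96350525-96354012) was among the most abundant members, at 4.85, 5.76 and 4.23 CPM in controls and 5.75, 6.07 and 5.78 CPM in MCKO. Control replicate 2 lay within the MCKO range, and the log2 fold change of 0.32 (SE 0.13) had an adjusted p of 0.0641. Without that library the value was 0.43 (adjusted p = 0.0163), and limma voom gave 0.35 (adjusted p = 0.0371), so the call of Hoxb2 depends on 1 library and on the tool. The Hoxb2 exons overlap the antisense gene Hoxb3os over 27.3% of their length, and the gene ID of Hoxb3os is not among those with counts.

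The paralogue 3 genes are known for pharyngeal pouch, thymus and neural crest development, and Hoxa3 and Hoxb3 rose. Hoxa3 (ENSMUSG00000079560, chr6:52169062-52213336) was at 0.704, 0.987 and 0.995 CPM in controls and 3.47, 3.73 and 3.27 CPM in MCKO. The lowest MCKO library was above the highest control by a wide margin, and the log2 fold change was 2.02 (SE 0.18, adjusted p = 1.31e-05). Hoxb3 (ENSMUSG00000048763, chr11:96323326-96347930), the most abundant Hox gene, was at 8.52, 7.74 and 8.67 CPM in controls and 11.5, 13.5 and 12.2 CPM in MCKO. It rose less in proportion, by 0.63 (SE 0.095, adjusted p = 0.000364), again without overlap. Hoxb3os, on the opposite strand, covers 52.9% of its exonic length, and the strand setting of the counting is not given in the sources used here, so sense and antisense reads cannot be told apart.

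Hoxd3 (ENSMUSG00000079277, chr2:74711927-74748442) had 6, 1 and 2 counts in controls and 12, 19 and 14 in MCKO. The groups did not overlap, and the log2 fold change was 2.26 (SE 0.56, adjusted p = 0.00641), but it rests on 9 control counts. Without control replicate 1, which held 6 of them, it was 3.18 (adjusted p = 0.00423). Leaving out any MCKO library put Hoxd3 under the count minimum. The read-through gene Gm28230 covers 53.1% of the Hoxd3 exons on the same strand and had 0 counts in all controls and 2, 0 and 5 in MCKO, so the division of reads between them is uncertain. Hoxd4 also shares 388 bases with the Hoxd3 exons on the same strand, 9.26% of their length.

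**Figure D1:**
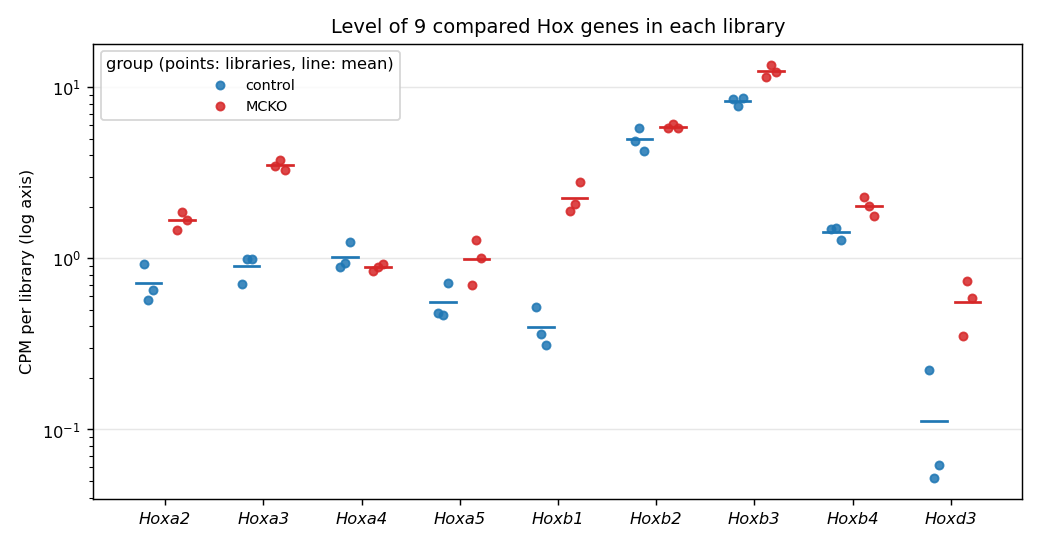
CPM of 9 compared Hox genes on a log axis, with 1 point per library and a line at the group mean, in blue for 3 control and in red for 3 MCKO libraries. Hoxa3 and Hoxb1 are widely separated between groups, while Hoxa4, Hoxa5 and Hoxb2 overlap.

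Paralogues 4 and 5 act in the caudal hindbrain, neck and foregut mesoderm, and 2 of the 3 compared were called, Hoxb4 and Hoxa5. Hoxa4 (ENSMUSG00000000942, chr6:52189671-52191753) was at 0.889, 0.935 and 1.24 CPM in controls and 0.847, 0.895 and 0.921 CPM in MCKO. The groups overlapped, and the log2 fold change of -0.16 (SE 0.23, adjusted p = 0.565) turned to 0.015 without control replicate 3, the highest library. Hoxb4 (ENSMUSG00000038692, chr11:96318267-96321638) was at 1.48, 1.51 and 1.27 CPM in controls and 2.28, 2.02 and 1.76 CPM in MCKO. Its log2 fold change was 0.58 (SE 0.18, adjusted p = 0.0193). The call was lost with DESeq2 (adjusted p = 0.0959), without control replicate 3 (0.0653) and without MCKO replicate 1 (0.0795).

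Hoxa5 (ENSMUSG00000038253, chr6:52201754-52204587), a gene of lung and foregut mesenchyme, had 13, 9 and 23 counts in controls and 24, 33 and 24 in MCKO. Control replicate 3, at 0.715 CPM, exceeded MCKO replicate 1, at 0.701 CPM, so the groups overlapped. The log2 fold change was 0.85 (SE 0.31, adjusted p = 0.0414), close to the threshold. It was lost in 8 of 14 alternatives, including DESeq2 (adjusted p = 0.112) and the fits without control replicate 1 (0.123), control replicate 2 (0.0933), MCKO replicate 2 (0.15) or MCKO replicate 3 (0.0887). The direction of Hoxa5 and Hoxb4 was kept in all of their 14 alternatives.

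**Figure D2:**
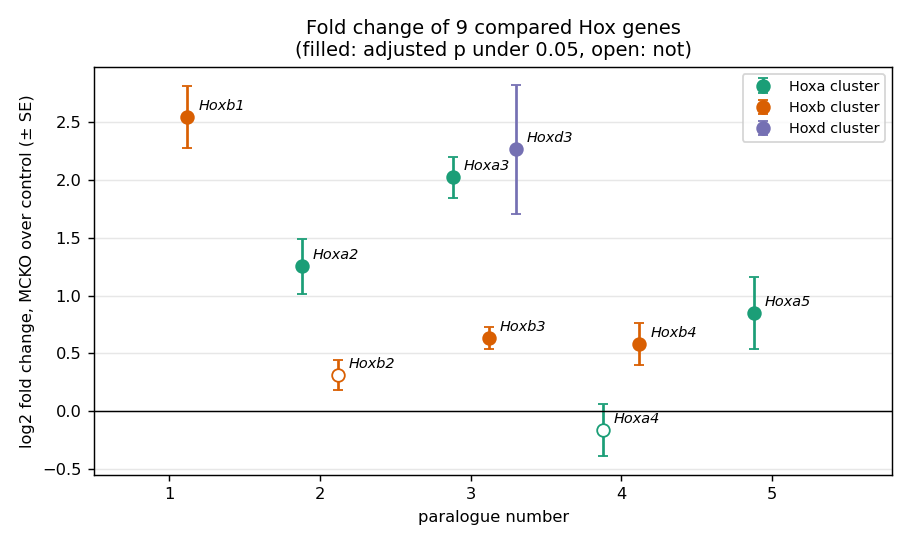
Log2 fold change (MCKO over control, with its SE) of 9 compared genes against paralogue number, coloured by cluster, with filled points for an adjusted p under 0.05. The values of Hoxb1, Hoxa3 and Hoxd3 lie above 2, that of Hoxa2 at 1.25, those of Hoxb2, Hoxb3, Hoxb4 and Hoxa5 between 0.32 and 0.85, and Hoxa4 at -0.16.

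Within the Hoxa cluster the log2 fold changes were 1.25, 2.02, -0.16 and 0.85 from Hoxa2 to Hoxa5, and within Hoxb they were 2.55, 0.32, 0.63 and 0.58 from Hoxb1 to Hoxb4. Neighbouring genes thus had different values, for example Hoxb1 and Hoxb2. Differences between the fold changes of members were not tested. As shares of all Hox counts, Hoxa3 went from 3.29 to 4.63% in controls to 8.64 to 9.40% in MCKO. Hoxb3 went from 36.3 to 40.1% to 31.0 to 32.6%, although its CPM rose. Hoxa4 went from 4.15 to 5.76% to 2.16 to 2.44%.

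Levels of different genes are compared here as CPM per kilobase of the longest transcript in GENCODE M21. In controls the order was Hoxb3 at 2.61, Hoxb2 at 1.58, Hoxa4 at 0.642, Hoxb4 at 0.554, Hoxa2 at 0.404, Hoxa3 at 0.346, Hoxa5 at 0.296, Hoxb1 at 0.191 and Hoxd3 at 0.0378 CPM per kilobase. The libraries of neighbours in this order overlapped from Hoxa4 down to Hoxa5, so those ranks are not separated, while Hoxb3, Hoxb2 and Hoxd3 did not overlap with a neighbour, and Hoxb1 lay just under Hoxa5. In MCKO, Hoxb3 was at 3.88, Hoxb2 at 1.87, Hoxa3 at 1.35, Hoxb1 at 1.08, Hoxa2 at 0.939, Hoxb4 at 0.787, Hoxa4 at 0.557, Hoxa5 at 0.531 and Hoxd3 at 0.188 CPM per kilobase. There Hoxb3 and Hoxb2 did not overlap with each other or with Hoxa3, and Hoxa3, Hoxb1, Hoxa2 and Hoxb4 overlapped each with the next, as did Hoxa4 and Hoxa5. With the merged length of all exons, the control levels of Hoxa3 and Hoxb3, whose transcripts differ in length, were 0.149 and 1.96 CPM per kilobase. All 10 were below the median gene, which was at 6.83 CPM per kilobase in controls and 6.75 in MCKO over 14725 tested genes with a length, and Hoxb3 stood at percentile 32.3 and then 38.2.

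**Figure D3:**
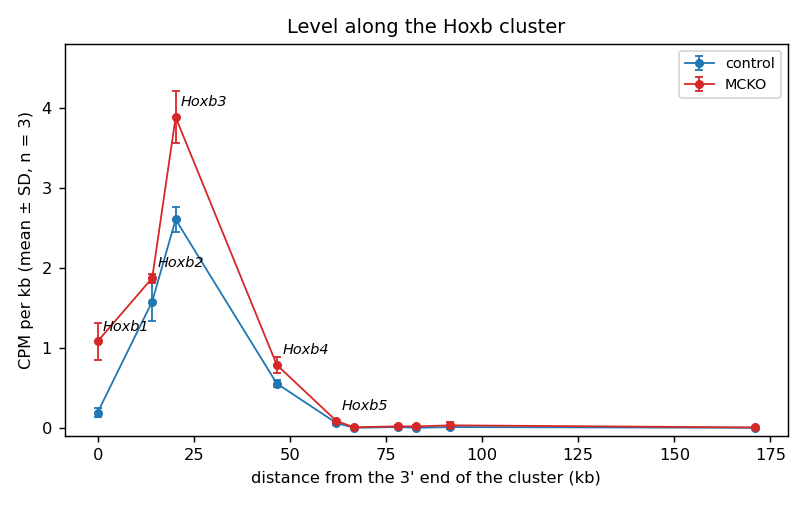
Level in CPM per kilobase (mean ± SD, 3 libraries per group) of the Hoxb genes against the distance of each gene's 3′ end from the 3′ end of the cluster, in kilobases. The level is highest at Hoxb3, at 20.3 kilobases, and falls to near 0 beyond Hoxb4, at 46.6 kilobases, in both groups.

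The 29 scarce genes held 122 control and 167 MCKO counts, for a ratio of 1.28 (counting interval 1.01 to 1.63), with overlapping groups. Of these, 6 were at 0 in all libraries: Hoxa6, Hoxa11, Hoxc10, Hoxc11, Hoxc12 and Hoxd12. Whether such a gene had no reads or was left out of the quantification cannot be told apart. Another 16 had 1 to 10 counts over all 6 libraries, and 7 had more. The 7 were Hoxc4 with 28 control and 34 MCKO counts, Hoxa9 with 21 and 18, Hoxb5 with 14 and 20, Hoxc9 with 11 and 19, Hoxc5 with 12 and 8, Hoxd8 with 8 and 8, and Hoxd1 with 2 and 10. All counting intervals of these 7 ratios include 1, from 0.624 (0.221 to 1.66) for Hoxc5 to 4.68 for Hoxd1, so no difference was detectable at this depth.

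The 16 scarcest detected genes are accounted for by their summed control and MCKO counts, in that order. In Hoxa, Hoxa7 and Hoxa13 each had 2 and 7 counts and Hoxa10 had 0 and 3. In Hoxb, Hoxb9 had 2 and 6, Hoxb7 had 1 and 2, Hoxb8 had 0 and 4, and Hoxb6 and Hoxb13 each had 0 and 1. In Hoxc, Hoxc8 had 7 and 1, Hoxc6 had 3 and 1 and Hoxc13 had 0 and 2. In Hoxd, Hoxd4 had 4 and 5, Hoxd9 had 2 and 4, Hoxd11 had 1 and 2, Hoxd10 had 2 and 0 and Hoxd13 had 0 and 4. The genes of paralogue group 13, which mark the tail end of the axis, summed to 2 counts in controls and 14 in MCKO (ratio 6.55, counting interval 1.5 to 59.3), and each library held at most 8. This group was singled out after its counts were seen. In the fit without a count filter, 33 Hox genes were tested and the 8 called were again the 8 of the 10 compared genes.

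Genes of proteins that act with and on Hox genes are counted over those tested by edgeR, and each count reads against 29.0% of all tested genes called higher and 28.9% lower. Of 9 TALE cofactor genes, 3 rose, Pbx4 and Meis3 among them, and 2 fell (Pbx3 and Pbx2), shares near those of all genes, with a median log2 fold change of -0.05. Meis3 went from 23.9 ± 0.669 to 27.6 ± 1.02 CPM, while Pbx3 went from 51.8 ± 1.98 to 34.7 ± 1.15 CPM and Pbx2 from 167 ± 7.14 to 141.1 ± 2.71 CPM. The summed level of the 9 was 589.1 to 613 CPM in control libraries and 586.6 to 600.8 CPM in MCKO. Of 13 Cdx and other Hox-related homeobox genes only Meox1, a somite gene, was tested, at 0.35 (SE 0.19, adjusted p = 0.135). Cdx2, Cdx4, Evx1, Gsx1, Gsx2 and Pdx1 were at 0 in all libraries.

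Among retinoic acid pathway genes, 9 of the 17 tested rose and 2 fell (Aldh1a1 and Crabp2). These counts stand beside 29.0% and 28.9% of all tested genes, and the median log2 fold change was 0.47. Cyp26c1, among the 9, had 4, 0 and 0 counts in controls and passed the minimum only in MCKO. The gene of the retinoic acid hydroxylase Cyp26a1, itself induced by retinoic acid, went from 0.654 ± 0.175 to 4.58 ± 0.269 CPM. The receptor gene Rara was at 40.0 ± 3.38 CPM in controls and 72.4 ± 4.32 CPM in MCKO, and Rarb at 19.7 ± 0.268 and 29.9 ± 1.09 CPM. The retinaldehyde-oxidising enzyme gene Aldh1a1 was at 12.98 ± 0.638 CPM in controls and 1.07 ± 0.0599 CPM in MCKO. On the same list, Aldh1a2 (log2 fold change -0.18, edgeR adjusted p = 0.18) and Aldh1a3 (-0.67, edgeR adjusted p = 0.0786) were not called. Genes of this pathway were already described in earlier results of these data, so the counts are no independent support.

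Of 20 Polycomb genes, 7 rose and 2 fell (Cbx2 and Ezh2), against 29.0% and 28.9% of all tested genes, with a median of 0.13. Jarid2, a cofactor of PRC2, went from 113 ± 0.443 to 213.2 ± 3.12 CPM, Ezh1, a PRC2 methyltransferase, from 21.9 ± 1.20 to 39.6 ± 0.514 CPM and Cbx7, a PRC1 subunit, from 2.03 ± 0.406 to 6.89 ± 0.250 CPM. Cbx2, another PRC1 subunit, went from 55.3 ± 1.70 to 37.4 ± 1.12 CPM. Of 11 genes on a list of MLL complex genes and demethylases of the Polycomb mark, 3 rose and 3 fell (Dpy30, Wdr5 and Ash2l), with a median of -0.02. Kdm6b, such a demethylase, went from 101.4 ± 9.01 to 237 ± 7.43 CPM, Kdm6a from 59.1 ± 2.997 to 72.2 ± 3.40 CPM, the MLL3 gene Kmt2c from 77.5 ± 5.50 to 91.9 ± 7.49 CPM and the core subunit gene Dpy30 from 48.0 ± 1.80 to 36.0 ± 0.833 CPM.

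Of 17 names on a list of Hox cluster transcripts outside the family, 1 was matched, 5730596B20Rik, which lies within the Hoxa3 locus on the opposite strand and is annotated as protein-coding. It had 6, 3 and 4 counts in controls and 21, 14 and 17 in MCKO, with a log2 fold change of 1.93 (SE 0.36, adjusted p = 0.00139). The groups did not overlap, but it passed the minimum only in MCKO. Its exons overlap 292 bases of Hoxa3 on the other strand. The remaining 16 names were not analysed here.

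Markers of tissues that surround the heart and can express Hox genes moved in the same libraries, and their part in the Hox values was not tested. The counts of called markers stand beside 29.0% of all tested genes called higher and 28.9% lower. Of 10 foregut and pharyngeal endoderm genes 9 rose and 0 fell, with a summed level of 154.2 to 168.6 CPM in controls and 263.2 to 285.7 CPM in MCKO and none at 0. Most of that sum was Krt8 (108.6 ± 6.69 to 165.3 ± 9.09 CPM) and Krt18 (50.5 ± 2.16 to 90.5 ± 2.40 CPM), keratins of several epithelia. The median log2 fold change of the list was 2.15. The sum of the other 8 genes was 3.58 to 5.04 CPM in controls and 19.4 to 19.8 CPM in MCKO, with Shh at 4.38 (SE 0.43), Pax9 at 4.55 (SE 0.44), Epcam at 2.64 (SE 0.15) and Foxa2 at 2.21 (SE 0.25) on the log2 scale. Cdh1 rose less, at 1.34 (SE 0.25). Nkx2-1, the gene of the list that was not called, was at -0.29 (SE 0.46, edgeR adjusted p = 0.61). Shh and Pax9 had 0 to 5 counts in a control library and passed the minimum only in MCKO. Of 8 genes of posterior second heart field and splanchnic mesoderm 6 rose and 1 fell, with 100.5 to 111.1 CPM in controls and 128.6 to 132.5 CPM in MCKO and none at 0. Foxf2, among the 6, had 8, 7 and 9 counts in controls and passed the minimum only in MCKO. Wnt2 went from 52.9 ± 3.77 to 79.6 ± 0.636 CPM and Nr2f1 from 28.4 ± 1.47 to 16.4 ± 1.31 CPM. Of 8 genes of somites and presomitic mesoderm 3 were tested and 2 rose (Foxc2 and Tbx6), with 15.6 to 20.3 CPM and then 27.3 to 31.0 CPM, most of it Foxc2 (14.9 ± 2.30 to 25.5 ± 1.35 CPM), and Msgn1, a presomitic mesoderm gene, was at 0. Meox1, the next most abundant, is given above.

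Other surrounding tissues gave mixed or lower values. Of 12 neural tube genes 6 were tested, 2 rose (Pax6 and Sox2) and 2 fell (Tubb3 and Sox3), with 25.7 to 30.6 CPM and then 11.9 to 12.9 CPM. Sox2 had 1, 5 and 4 counts in controls and passed the minimum only in MCKO. Tubb3 went from 23.4 ± 2.90 to 4.39 ± 0.741 CPM, Pax6 went from 1.33 ± 0.324 to 4.23 ± 0.248 CPM, Sox2 from 0.140 ± 0.112 to 1.03 ± 0.116 CPM, Neurog1 was at 0 everywhere, and Sox1, Olig2 and Hes5 were at or below 0.0247 CPM on average. Without Tubb3, the sum of the other 11 neural tube genes was 5.04 to 5.596 CPM in controls and 7.70 to 8.21 CPM in MCKO, so the direction of the sum rests on 1 gene. Of 8 neural crest genes 5 were tested, 0 rose and 3 fell (Erbb3, Twist1 and Sox10), with 45.5 to 47.1 CPM and then 28.9 to 34.7 CPM. Sox10 had 4, 4 and 9 counts in MCKO and passed the minimum only in controls. Erbb3 went from 21.5 ± 0.617 to 12.02 ± 1.32 CPM and Twist1 from 14.3 ± 1.09 to 8.13 ± 1.07 CPM, and Foxd3 was at 0. All 6 genes of septum transversum and proepicardium fell, from 196.5 to 205.8 CPM down to 77.6 to 79.1 CPM, with Tbx18 at 63.1 ± 1.55 and 22.8 ± 0.935 CPM and Wt1 at 31.0 ± 1.05 and 25.4 ± 0.388 CPM. Of 6 limb and body wall genes 4 were tested, 0 rose and 1 fell (Lhx9), with 67.6 to 71.5 CPM and then 60.3 to 65.3 CPM. Prrx2 was at 49.0 ± 3.58 and 50.6 ± 2.93 CPM and Prrx1 at 9.61 ± 1.36 and 9.72 ± 0.309 CPM. Without Lhx9 the limb and body wall sums overlapped, at 58.2 to 63.5 CPM and 59.5 to 64.6 CPM.

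Further lists cover the heart itself and blood. Of 9 heart muscle genes 5 rose and 1 fell (Myl2), with a median of 0.25, and Actc1 was at 10040 ± 438.3 and 11290 ± 242.2 CPM and Myh7 at 6332 ± 449.3 and 10130 ± 306.4 CPM. Among 8 genes of endothelium and endocardium, 6 rose and 2 fell (Tek and Npr3), with 1031 to 1059 CPM and then 1106 to 1138 CPM, led by Kdr (181.6 ± 8.43 to 250 ± 8.002 CPM) and Cdh5 (180.5 ± 2.59 to 209.7 ± 7.93 CPM). All 8 primitive red cell genes rose, with a summed level of 2942 to 3141 CPM and then 5959 to 6312 CPM, led by Hbb-y and Hba-x, which went from 806.4 ± 59.9 to 1768 ± 71.3 CPM. All 6 liver bud and yolk sac genes fell, from 14.9 to 16.8 CPM down to 0.506 to 0.879 CPM, with Afp at 11.4 ± 0.900 and 0.1003 ± 0.0903 CPM and Ttr at 1.29 ± 0.144 and 0.242 ± 0.0603 CPM. Afp, Alb, Ttr, Apoa1 and Hnf4a passed the count minimum only in controls, so the filter itself favoured a fall. Of 6 macrophage genes 2 were tested and 1 fell, Csf1r, from 2.33 ± 0.184 to 0.956 ± 0.229 CPM, C1qa was at 0, and Fcer1g was at 0.431 ± 0.111 and 0.466 ± 0.0373 CPM.

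**Figure D4:**
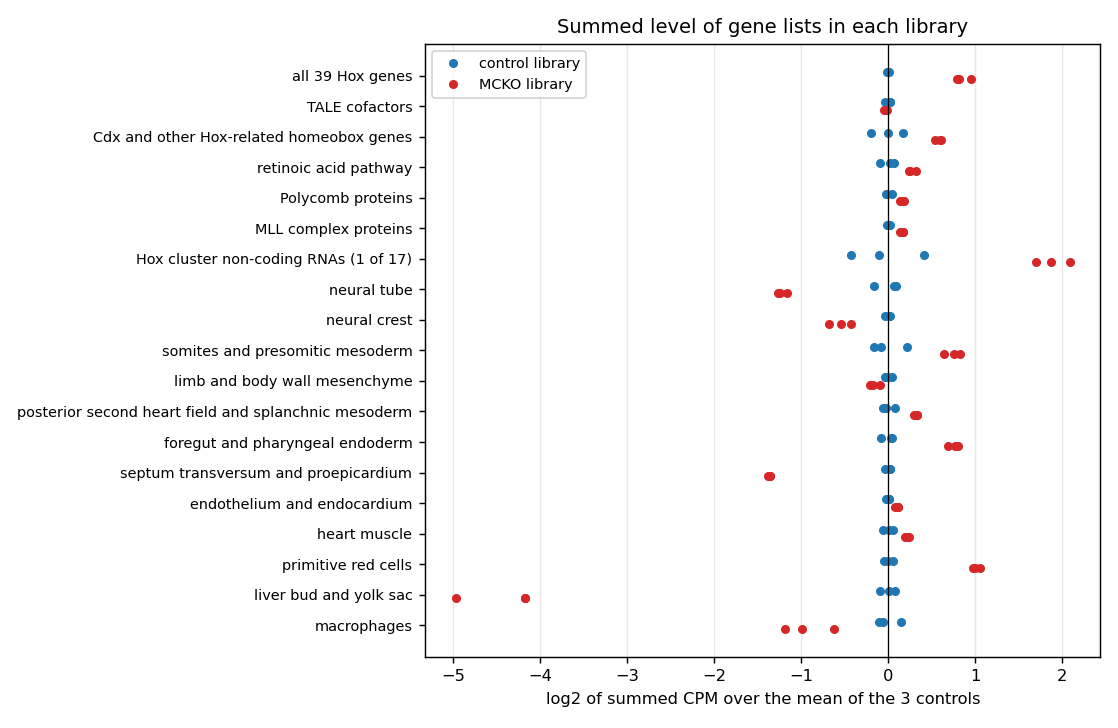
Summed CPM of all 39 Hox genes and of each gene list in every library, as log2 of the ratio to the mean of the 3 controls (blue: control libraries, red: MCKO libraries). The Hox sum lies above controls in every MCKO library. So do the sums for endoderm, somites, splanchnic mesoderm, red cells, endothelium and heart muscle. The sum of each pathway list also lies above, except that of the TALE cofactors, where the groups overlap. Those for neural crest, proepicardium, limb and body wall, macrophages and liver bud lie below. The neural tube sum also lies below, through Tubb3, and lies above without it.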

How the data were processed

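The authors deposited 1 table of estimated counts for Ensembl gene IDs. Its values are whole numbers without scaling for depth or length. Kallisto and mm10 were used, per the submitters' processing notes. The version, the transcript set and how the values were rounded are not stated there. Per the labels' protocols a stranded TruSeq mRNA kit was used. Of 30323 IDs, 29857 matched a symbol. Knockout columns named CKO were matched to titles with MCKO by the rest of the name and number. Genes with at least 10 counts in 3 of 6 libraries (14824) were fitted with edgeR 4.0.16 in R 4.3.3 (TMM, robust quasi-likelihood, group only, 2-sided, Benjamini-Hochberg over all of them). SE is the log2 fold change divided by the root of the F statistic. CPM uses library totals. Gene models are GENCODE M21 (GRCm38, which is mm10), and sequences are RefSeq's. The named genes are all Hox genes, up to 4 called genes per pathway list by smallest p, and the 2 most abundant of each marker list (mean of all libraries); other names were chosen after their values were seen. Values of 1 Hox gene and 1 cofactor gene are not reported here, although sums and counts include them. The members and lists were chosen with earlier results of these data known. On simulated data for MCKO against control (14635 genes), the fit recovered 87.9% of genes changed by 1 and 98.9% of those changed by 2 on the log2 scale, and 8.59% of its calls were false. Replicates differed by a chi-square per degree of freedom of 3.58 to 15.4 within groups, so none was taken for a copy. Alternatives were other size factors, filters and thresholds, DESeq2 1.42.0, limma 3.58.1 (voom), a replicate block and leaving out each library.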

Additional observations from a re-analysis of the deposited data

How the results depend on the processing

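The number of Hox genes called higher was 8, and 6 to 8 with each library left out. It was 4 among the 5 genes with at least 50 counts in 3 libraries, a filter that by construction tests fewer genes, 6 with DESeq2 and 6 at an adjusted p under 0.01. No setting called a Hox gene lower. Over all genes, 8583 were called, and 7280 to 8602 with each library left out. With library totals only, 42.7% of calls were higher, against 50.1% with TMM. The calls of Hoxa2, Hoxa3, Hoxb1 and Hoxb3 were kept in every alternative that tested them. In fits with a count minimum, Hoxd3 was tested only where its MCKO counts passed it, so those calls say nothing about stability. With no filter beyond 1 count it was also called, at 2.29 (SE 0.57, edgeR adjusted p = 0.00368), on the same 9 control counts. In alternatives chosen after seeing the data, the log2 ratio of the summed neural tube markers went from -1.22 to 0.56 without Tubb3 and that of limb and body wall from -0.16 to 0.022 without Lhx9. The log2 fold change of Hoxa4 was -0.27 to 0.015 with each library left out, and it reversed without control replicate 3. The cause was not tested. A fit with a replicate block called 7773 genes, 7 of them Hox genes, with Hoxa5 lost (adjusted p = 0.0518). Same-numbered libraries share only a number, with correlations of deviations of 0.0024, 0.030 and -0.127, and 1 of 6 libraries correlated best with its own number. Depth limits the 29 scarce genes, where 3 counts are 0.0876 to 0.156 CPM.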
